A study of Mus musculus with 8 samples.

Results

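The S100 calcium-binding proteins described here are 8 genes, S100a1, S100a4, S100a6, S100a8, S100a9, S100a10, S100a11 and S100a13, taken by name from the 30406 genes that the gene lists of all libraries share. All 8 were found in all 8 libraries. The lists hold 10 other genes with an S100 symbol, including S100pbp, a binding protein and not a family member, and these together gave few transcripts. The data are single-cell RNA-seq (scRNA-seq) of leukocytes from adult male C57BL/6 mice, taken from 3 tissues: the brain parenchyma, the pia mater and the dura mater, which are layers of the meninges around the brain. Leukocytes were sorted as CD45+ cells that an antibody against CD45 injected into the blood had not stained, so that cells outside the vessels were kept. The mice were controls or had undergone transient middle cerebral artery occlusion (MCAO), a model of ischemic stroke in which an artery that feeds the hemisphere is blocked and reopened, 24 h or 72 h before. The question put to these genes was how their transcript levels were spread over the leukocyte clusters, the tissues and the times after stroke.

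The brain gave a control library, 2 libraries at 24 h (replicate 1 and replicate 2) and 1 at 72 h, while the dura and the pia each gave a control library and 1 at 24 h. The title of control pia names the brain parenchyma, whereas its tissue and source labels name the pia, and it was used as pia. The study's methods give naive mice as the scRNA-seq controls, and the sources do not tie animals to libraries, so a spread between libraries may be technical. All libraries share the strain, the sort and the intravenous label. The authors' annotation names 21 clusters over 32457 cells. Each library held between 6591898 and 20754181 transcripts, counted as unique molecular identifiers (UMIs), the tags that mark each captured transcript once. A level below is the UMIs of a gene summed over the cells of a cluster in 1 library, per 1000000 UMIs of those cells (CPM). It was used where a library had at least 30 cells of the cluster. The libraries are tag counts of transcript ends, with no correction for gene length, so levels are compared between cells and libraries, not between genes. Brain 24 h replicate 2 and brain 72 h stood apart from the other 6 libraries: they came with a list of 31053 genes against 32285, and they shared 13 cell barcodes with each other but at most 2 with any of the other libraries, which shared between 12 and 43 among themselves. These 2 are called the shorter-list libraries, and the means that moved most with them are also given without them. A later kit version is recorded for dura 24 h and brain 72 h, a split that goes against the gene lists and the shared barcodes. Dura 24 h shared 12 to 35 barcodes with the other libraries of the longer list. It shared 0 with brain 24 h replicate 2 and 1 with brain 72 h. Control dura has the earlier kit on record, so stroke and recorded kit cannot be told apart in the dura. The replicates of brain at 24 h share the recorded kit, tissue and time and differ in gene list, and what else set them apart is not given in the sources used here.

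S100 proteins are small proteins with a pair of EF-hand motifs that bind calcium, and most work as dimers that change shape with calcium and then bind a target protein. S100a8 and S100a9 form the heterodimer calprotectin, which fills much of the cytosol of neutrophils, binds zinc and manganese, and is released at sites of inflammation, where it is known as a ligand of Toll-like receptor 4 and of the receptor for advanced glycation end products. S100a10 and S100a11 bind annexins at membranes, S100a4 binds non-muscle myosin and is known from motile cells, S100a6 (calcyclin) marks cycling and activated cells, S100a13 takes part in release of proteins that lack a signal peptide, and S100a1 is best known from heart muscle and neurons.

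The genes lie on chromosome 3 in 2 stretches (GRCm38). One stretch of 184688 bases, chr3:90511034-90695721, holds S100a1, S100a13, S100a4, S100a6, S100a8 and S100a9 in this order. The other, of 44156 bases, chr3:93520488-93564643, holds S100a11 and S100a10. S100a1 (minus strand) and S100a13 (plus strand) start close together and run apart. S100a4, at chr3:90603771-90606045 on the plus strand, overlaps a predicted gene on its own strand, Gm42674, which only the list of the shorter-list libraries carries. Gm42674 had 0 UMIs there, while S100a4 had 3413 in brain 24 h replicate 2 and 11662 in brain 72 h.

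Promoter sequences were available for 7 of the 8 genes from RefSeq (GRCm38.p6), and those of S100a8 and S100a9, the pair that moved together over clusters, are shown with that of S100a4, which was near 0 where the pair was highest. Each runs from 250 bases before the annotated start to 30 after it, 5′ to 3′ on the strand of the gene: chr3:90668821-90669100 (plus strand) for S100a8, chr3:90695692-90695971 (minus strand) for S100a9 and chr3:90603520-90603799 (plus strand) for S100a4. Capitals mark matches, on either strand, to TTGCNNAA (bound by C/EBP factors), AGGAAGT (bound by PU.1) or TATAAA (the letters of the TATA box). No marked match overlaps another.
S100a8: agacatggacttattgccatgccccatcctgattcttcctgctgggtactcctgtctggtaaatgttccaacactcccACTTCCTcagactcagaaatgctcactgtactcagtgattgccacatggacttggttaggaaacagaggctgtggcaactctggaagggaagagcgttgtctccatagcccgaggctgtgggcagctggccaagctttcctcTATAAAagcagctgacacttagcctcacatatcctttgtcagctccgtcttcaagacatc
S100a9: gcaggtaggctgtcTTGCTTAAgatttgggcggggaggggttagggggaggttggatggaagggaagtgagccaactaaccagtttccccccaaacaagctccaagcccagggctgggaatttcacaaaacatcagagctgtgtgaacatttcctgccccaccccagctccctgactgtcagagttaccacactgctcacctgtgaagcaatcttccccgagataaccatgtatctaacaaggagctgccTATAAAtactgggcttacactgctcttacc
S100a4: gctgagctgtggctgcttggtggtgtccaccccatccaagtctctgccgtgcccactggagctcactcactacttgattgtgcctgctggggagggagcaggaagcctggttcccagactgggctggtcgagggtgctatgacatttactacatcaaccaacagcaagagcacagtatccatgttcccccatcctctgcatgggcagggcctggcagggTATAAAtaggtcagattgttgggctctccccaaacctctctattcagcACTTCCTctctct
Over the full windows, to 50 bases after the start, all 3 genes held TATAAA, which 13.6% of 32851 RefSeq promoters of 300 bases held. Its first base lay at -30 in S100a8 and at -31 in S100a4, counted from the annotated start, but in S100a9 at the annotated start itself, which is not the usual place of a TATA box. S100a8 and S100a4 held the PU.1 letters (9.35% of promoters), and S100a9 held the C/EBP letters (10.8%). S100a11 held TGANTCA, the AP-1 letters, in 2 places (7.81% of promoters held it). The windows of S100a1, S100a6 and S100a13 held none of these 4. A match is a string of letters and says nothing of binding.

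S100a8 and S100a9, the subunits of calprotectin, were highest by far in Granulo_2. S100a8 averaged 113480 ± 28334 CPM there (SD, n = 6 libraries) and S100a9 71778 ± 49798 CPM, or 41359 ± 8340 CPM without the shorter-list libraries (n = 4). The proliferating cells (prolif_cells) followed at 4702 ± 4453 CPM of S100a8 and 997 ± 900 CPM of S100a9 (n = 3), then Granulo_1 at 944 ± 1094 CPM and 177 ± 327 CPM (n = 7). Single libraries carried some of these means: without brain 24 h replicate 2, S100a9 in Granulo_1 was 54.9 ± 53.9 CPM (n = 6), and without dura 24 h prolif_cells were at 2490 CPM of S100a8 and 554 CPM of S100a9 (n = 2). With a minimum of 10 cells in place of 30, S100a9 in prolif_cells averaged 2556 CPM (n = 6). Within the libraries that held both clusters, Granulo_2 was above prolif_cells by 5.85 ± 2.53 on the log2 scale for S100a8 and by 6.84 ± 3.06 for S100a9 (SD, in 3 of 3 libraries), and prolif_cells above Granulo_1 by 2.75 ± 1.99 and 3.07 ± 2.13 (3 of 3). Below these clusters no other held a mean above 139.9 CPM of S100a8 or 69.3 CPM of S100a9. The genes took part in the authors' clustering, so differences between clusters are a description without a test.

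**Figure D1:**
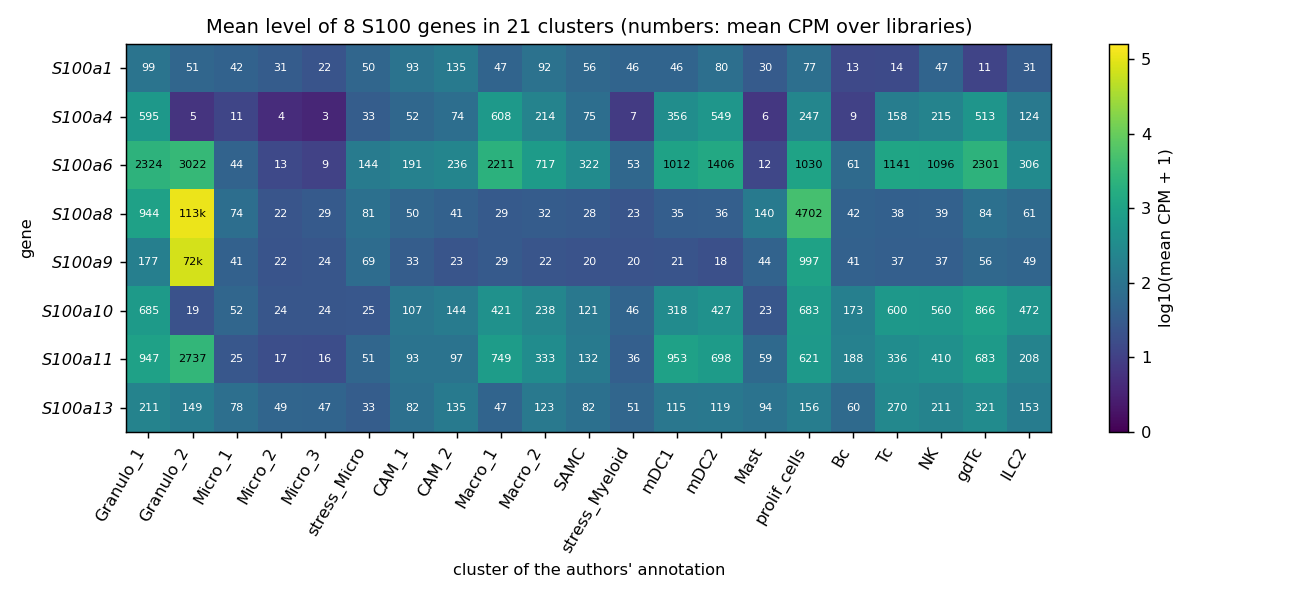
Mean level of each of the 8 S100 genes (rows) in each of the 21 clusters (columns), coloured as log10 of mean CPM plus 1 and printed as mean CPM in each field, over those libraries in which the cluster had 30 cells or more. S100a8 and S100a9 stand out in Granulo_2 (113480 and 71778 CPM), while S100a4 and S100a10 are near their lowest there (5.12 and 19.1 CPM).

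The clusters that bear a granulocyte name differ in their markers. Granulo_2 carried the neutrophil markers Ly6g, Cxcr2, Retnlg, Mmp9 and Mmp8, with the 7 neutrophil markers summing to a mean of 20764 CPM, and it was the top cluster for Camp, Ngp, Ltf and Lcn2, which encode granule proteins. In Granulo_1 the same 7 summed to 291 CPM, Ly6g averaged 0.94 CPM and Cxcr2 0.44 CPM, while the monocyte markers Ccr2 (631 CPM), Plac8 (1603 CPM), Fn1 (943 CPM) and Chil3 (3358 CPM) were present. Of these 4, Chil3 was higher still in Granulo_2 (5219 CPM), where Ccr2 was at 5.1 CPM. The data thus go against a granulocyte name for Granulo_1, and it is called by its label only. Where granulocytes or granulocyte clusters are named as a class below, the sum of Granulo_1 and Granulo_2 is meant, by label alone. Elane and Mpo, enzymes of the primary granules made by young neutrophils in the marrow, had their highest means in prolif_cells (1013 and 483 CPM).

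S100a8 was high in every library with enough Granulo_2 cells. It stood at 80642 CPM in brain 24 h replicate 1, 131926 in replicate 2, 91906 in brain 72 h, 93289 in pia 24 h, 150090 in control dura and 133027 in dura 24 h. Control brain and control pia had under 30 such cells. The control library of the dura was the highest of the 6. S100a9 stood at 29827, 155923, 109311, 40946, 48774 and 45890 CPM in the same order, so that the shorter-list libraries lay above all others for S100a9 but not for S100a8. Of the 7 S100 genes with a mean of at least 10 CPM in Granulo_2, 3 (S100a6, S100a9 and S100a11) were higher in the shorter-list libraries without overlap, and so were 25.7% of 5669 genes. Together the pair took between 11.0% and 28.8% of all UMIs of a Granulo_2 library. The median Granulo_2 cell held between 20 and 228.5 UMIs of S100a8.

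The ratio of S100a9 to S100a8 UMIs in Granulo_2 therefore differed between the library sets. It was 0.37, 0.44, 0.32 and 0.34 in brain 24 h replicate 1, pia 24 h, control dura and dura 24 h, and 1.18 and 1.19 in brain 24 h replicate 2 and brain 72 h. The sets did not overlap, and the 2 replicates of brain at 24 h lay on opposite sides, with counting intervals (95%, which cover counting error only here and below) of 0.35 to 0.39 and 1.17 to 1.19. Whether the gene lists, which set how reads are assigned, bear on this ratio was not tested.

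**Figure D2:**
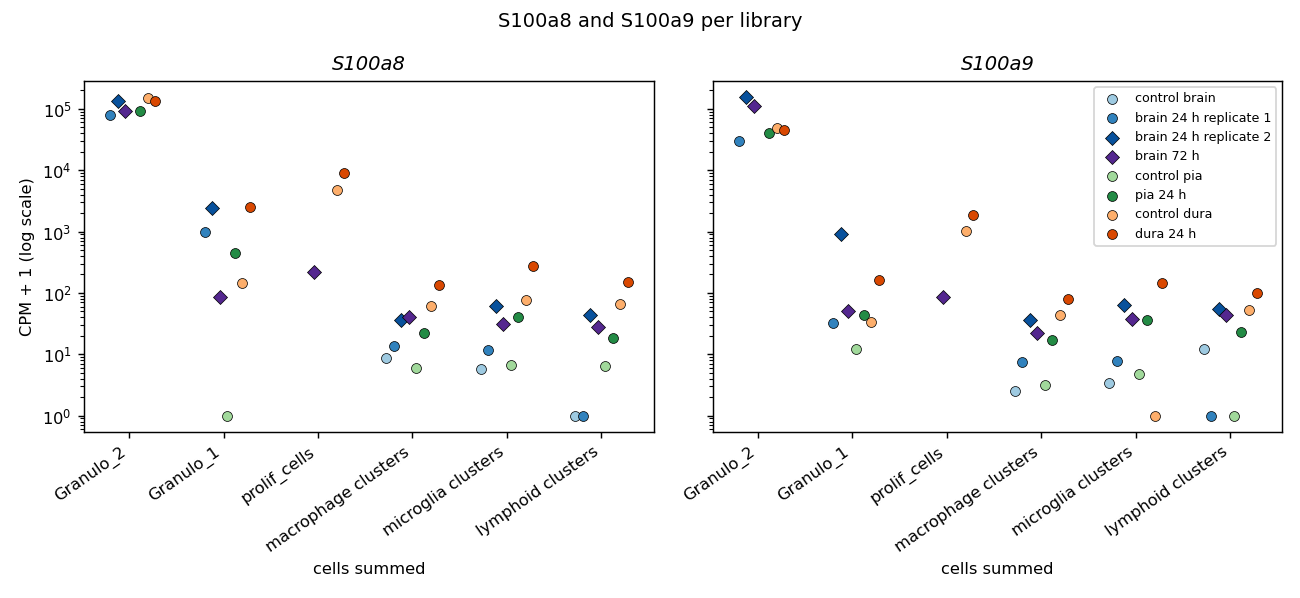
S100a8 and S100a9 levels (CPM plus 1, log axis) in Granulo_2, Granulo_1, prolif_cells and the macrophage, microglia and lymphoid clusters, one point per library, with diamonds for the shorter-list libraries. Granulo_2 lies between 29827 and 155923 CPM in the 6 libraries with at least 30 such cells, which do not include control brain and control pia. The lymphoid clusters never exceed 149 CPM.

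In Granulo_1 the level of S100a8 came from few cells. It was 985 CPM in brain 24 h replicate 1, 2463 in replicate 2, 86.0 in brain 72 h, 0 in control pia, 447 in pia 24 h, 145 in control dura and 2481 in dura 24 h, and the median cell held 0 UMIs in all 7. In brain 24 h replicate 2, 20 of 188 cells had over 20 UMIs and held 86.8% of the UMIs of S100a8, and in dura 24 h 11 of 109 cells held 80.8%. The same held in prolif_cells, where 6 of 62 cells of control dura held 97.9% and 12 of 43 cells of dura 24 h held 96.1%. The 2 controls that could be measured lay below their tissue at 24 h (control pia 0 against 447 CPM, control dura 145 against 2481 CPM), with 1 library a side and no test. S100a9 was low relative to S100a8 in Granulo_1 of the stroke libraries. The ratio was 0.03 (interval 0.02 to 0.06) in brain 24 h replicate 1, 0.09 in pia 24 h and 0.07 in dura 24 h. These were below the 0.37, 0.44 and 0.34 of Granulo_2 in the same libraries. It was 0.37 in brain 24 h replicate 2 and 0.58 in brain 72 h, below the 1.18 and 1.19 there. In control dura, the only control with a ratio, it was 0.23 (interval 0.07 to 0.62), which took in the 0.32 of Granulo_2 there.

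Lymphocytes are not known to make calprotectin, so UMIs of the pair in the B, T, NK, gd T and ILC2 clusters served as the level of free RNA. S100a8 in these lymphoid clusters was 0 CPM in control brain and in brain 24 h replicate 1, 42.5 in brain 24 h replicate 2, 26.7 in brain 72 h, 5.37 in control pia, 17.4 in pia 24 h, 64.0 in control dura and 149 in dura 24 h. S100a9 was 11.4, 0, 53.7, 42.3, 0, 21.8, 52.1 and 99.8 CPM in the same order. The dura libraries were the highest for S100a8, while for S100a9 brain 24 h replicate 2 lay between them. Control brain, brain 24 h replicate 1 and control pia lay at or near 0, where 3 counts would have been 34.3 CPM in control brain, a library with only 68 lymphoid cells. The level went with that of the whole library. Over the 8 libraries, lymphoid S100a8 rose with S100a8 over all annotated cells, with Pearson's r = 0.83 (exact permutation p = 0.00332, adjusted over the 2 genes 0.00665) and Spearman's rho = 0.97 (exact permutation p = 0.000595, adjusted 0.00119). For S100a9 r was 0.53 (exact permutation p = 0.165, adjusted 0.165) and rho 0.87 (exact permutation p = 0.00794, adjusted 0.00794). Without the 2 libraries farthest from the median level, brain 24 h replicate 2 and dura 24 h, r was 0.98 for S100a8 and 0.94 for S100a9 (n = 6). Within the 6 libraries of the longer gene list r was 0.97 and 0.98, and rho 0.99 and 0.81 (exact permutation p = 0.00556 and 0.0722). Lymphoid cells are part of all annotated cells, so the measures share some counts.

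The ratio of the pair differed between the lymphoid clusters and Granulo_2 in some libraries. In dura 24 h lymphoid S100a9 to S100a8 was 0.67 (interval 0.57 to 0.79) against 0.34 (0.34 to 0.35) in Granulo_2, and in control dura 0.81 (0.59 to 1.13) against 0.32 (0.32 to 0.33). In brain 24 h replicate 2 the intervals overlapped, at 1.26 (0.81 to 1.99) against 1.18 (1.17 to 1.19), as they did in brain 72 h at 1.58 (0.93 to 2.76) against 1.19 (1.17 to 1.204). In pia 24 h they did not, at 1.25 (0.55 to 2.92) against 0.44 (0.42 to 0.45). The lymphoid ratio was thus above that of Granulo_2 in all 3 libraries of the longer gene list where both could be measured.

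**Figure D3:**
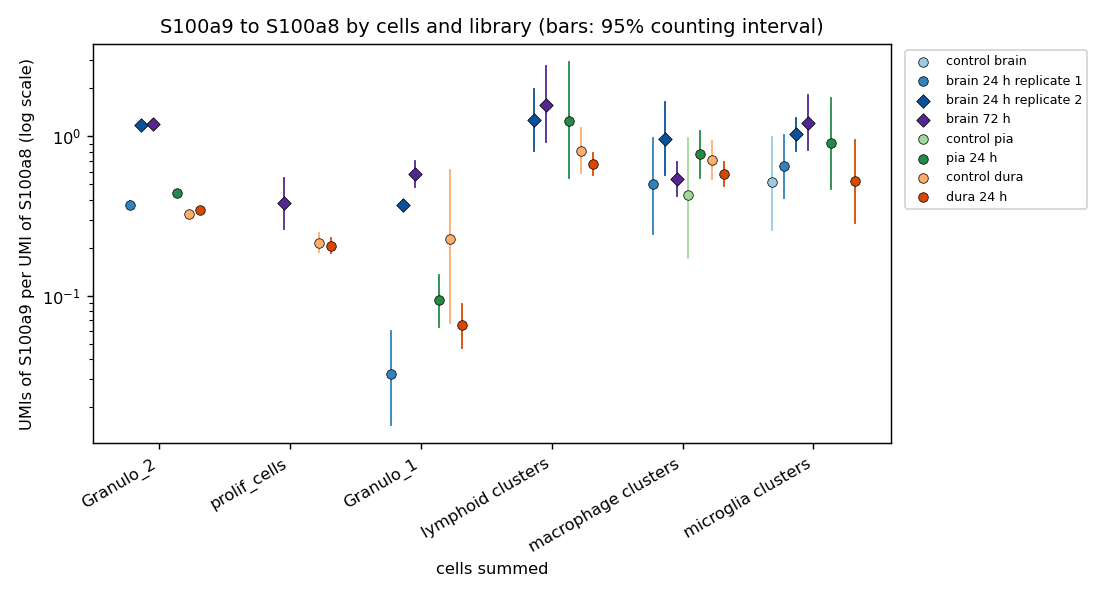
Ratio of S100a9 to S100a8 UMIs (log axis) per library in Granulo_2, prolif_cells, Granulo_1 and the lymphoid, macrophage and microglia clusters, with 95% counting intervals as bars. Granulo_2 lies at 0.32 to 0.44 in the libraries of the longer gene list and at 1.18 and 1.19 in the others.

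The share of cells with at least 1 UMI gave the same order. With each cell thinned to 500 UMIs, S100a8 was detected in 89.5% to 100% of Granulo_2 cells over 6 libraries, and S100a9 in 86.0% to 100%. In lymphoid cells the shares were 0% to 7.46% for S100a8 and 0% to 5.37% for S100a9 over 8 libraries (unthinned, up to 14.5% and 9.97%). In Granulo_1 the share with S100a8 was 22.9% (exact binomial interval 17.1% to 29.5%) in brain 24 h replicate 2, 22.0% (14.6% to 31.0%) in dura 24 h and 19.8% (11.96% to 29.8%) in brain 24 h replicate 1, above the lymphoid 2.52%, 7.46% and 0% of the same libraries. Median depths were 5667.5, 2335 and 3444.5 UMIs in Granulo_1 against 1877, 899 and 1222 in the lymphoid cells. In brain 72 h Granulo_1 had 2.28% (1.54% to 3.24%) against a lymphoid 1.34% (0.62% to 2.53%), so that the intervals overlapped, and 2 of its 1315 cells held 27.8% of the UMIs of S100a8. In control pia it was 0 of 55 cells (interval to 6.49%). In microglia the share with S100a8 was 0.21% in control brain, 0.27% and 3.38% in the brain 24 h replicates, and 9.21% in dura 24 h (7 of 76 cells). The lymphoid shares of these libraries at 24 h, given above, were 0%, 2.52% and 7.46%. In macrophages the share with S100a8 was 0.47% to 6.23%. At equal depth none of the macrophage shares was above its library's lymphoid share by more than the counting intervals. The ratio of S100a9 to S100a8 in the macrophages of brain 72 h was 0.54 (0.42 to 0.69), below both the lymphoid 1.58 and the 1.19 of Granulo_2 there, and the part of free RNA in these UMIs was not tested.

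S100a6, S100a11, S100a4 and S100a10 formed the other broad pattern, high in Granulo_1, gd T cells and dendritic cells and low in microglia. Over the 21 clusters the log2 mean level of S100a6 correlated with that of S100a11 at r = 0.93 and that of S100a4 with that of S100a10 at r = 0.90, whereas S100a4 and S100a8 were at r = -0.07. The other pairs of these genes were looser, at r = 0.64 to 0.81, and S100a13 was at 0.56 to 0.68 with them. These correlations are across clusters of the same libraries and are descriptions. In the 3 named microglia clusters (Micro_1, Micro_2 and Micro_3) the means of all 4 genes were between 2.69 and 51.8 CPM. In stress_Micro, which had enough cells in the shorter-list libraries alone, S100a6 averaged 144 CPM. S100a4, S100a10 and S100a11 averaged 24.8 to 51.2 CPM there.

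S100a6 was highest in Granulo_2 at 3022 ± 1764 CPM (n = 6), followed by Granulo_1 at 2324 ± 1342 CPM (n = 7) and gd T cells at 2301 ± 980 CPM (n = 4). These neighbours did not differ beyond their spread within libraries (0.08 ± 0.32 and 0.08 ± 0.36 on the log2 scale). In Granulo_2 it was 2642, 6300, 3578, 2272, 1412 and 1928 CPM in brain 24 h replicate 1, replicate 2, brain 72 h, pia 24 h, control dura and dura 24 h. S100a11 was also highest in Granulo_2, at 2737 ± 793 CPM (n = 6), and there it was above mDC1 cells by 1.61 ± 0.51 on the log2 scale in 5 of 5 shared libraries. S100a11 has a processed pseudogene that could share its reads, which makes its level uncertain by an amount not measured here.

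S100a10 and S100a4 were instead near 0 in Granulo_2. S100a10 ranged from 3.19 to 40.6 CPM there, its lowest mean of all clusters (19.1 CPM), and averaged 866 ± 206 CPM in gd T cells (n = 4), 685 ± 232 in Granulo_1 (n = 7) and 683 ± 162 in prolif_cells (n = 3), which did not differ beyond their spread. S100a4 ranged from 0 to 22.4 CPM in Granulo_2, with 0 UMIs in brain 24 h replicate 1 and pia 24 h. It averaged 595 ± 579 CPM in Granulo_1 (n = 7), 549 ± 500 in mDC2 cells (n = 6) and 513 ± 533 in gd T cells (n = 4), with 608 CPM in Macro_1, which had enough cells in brain 72 h alone. The 2 granulocyte-named clusters thus stood at opposite ends for S100a4 and S100a10.

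The spread of S100a4 followed the library sets. In Granulo_1 it was 344, 1495, 1356, 55.4, 241, 402 and 274 CPM in brain 24 h replicate 1, replicate 2, brain 72 h, control pia, pia 24 h, control dura and dura 24 h, with the shorter-list libraries far above all others. In Granulo_1, S100a4, S100a6 and S100a11 separated this way, 3 of 8 S100 genes, as did 26.1% of 6876 genes. Without them its mean in Granulo_1 was 263 ± 132 CPM (n = 5), and S100a6 in Granulo_2 was 2063 ± 523 CPM (n = 4), still its highest mean. The order at the top of S100a4 was then Granulo_1, gd T cells (248 ± 59.3 CPM, n = 3) and mDC2 (243 ± 32.0 CPM, n = 4).

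S100a13 and S100a1 were spread more evenly. S100a13 was highest in gd T cells at 321 ± 69.9 CPM (n = 4), then in T cells at 270 ± 76.0 CPM (n = 8), a difference within libraries of 0.35 ± 0.27 on the log2 scale in 4 of 4, and then in NK cells at 211 ± 59.5 CPM (n = 6). S100a1 was highest in the macrophage clusters CAM_2 at 135 ± 100 CPM (n = 8) and CAM_1 at 93.4 ± 76.1 CPM (n = 8), with Granulo_1 between them at 99.3 ± 45.6 CPM, and lowest in gd T cells at 10.5 CPM. Its large SD in CAM_2 lay between tissues. S100a1 in CAM_2 was 5.09 CPM in control brain, 37.4 and 70.6 in the brain 24 h replicates and 66.5 in brain 72 h, but 255 in control pia, 209 in pia 24 h, 195 in control dura and 244 in dura 24 h. Brain and meninges did not overlap.

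The comparison was made in 11 sets of cells, the 5 classes and 6 single clusters, over the genes with a mean of at least 10 CPM. Each single cluster is also part of a class, so the 11 sets are not independent. S100a1 was lower in all measured brain libraries than in all of the meninges in 7 of the 11: microglia, the macrophage clusters together, the dendritic clusters, CAM_1, CAM_2, Macro_2 and Granulo_1. It was not in the granulocyte clusters together, the lymphoid clusters, Granulo_2 or Tc. The share of genes that separated this way was 5.8% in microglia, 5.74% in macrophages, 7.83% in dendritic cells, 3.79% in granulocytes and 5.85% in lymphoid cells. It was 6.23% in CAM_1, 5.88% in CAM_2, 4.12% in Macro_2, 6.43% in Granulo_1, 7.29% in Granulo_2 and 6.45% in Tc. S100a13 separated too in CAM_1, CAM_2, Granulo_1 and Granulo_2, and no other S100 gene did in any set, so that 0 to 2 of the 7 or 8 genes measured did so in a set. In CAM_1, S100a13 was 24.97 to 85.7 CPM in the brain libraries and 92.2 to 124 CPM in the meninges. Markers of microglia (Tmem119, P2ry12, Sall1 and Sparc) were higher where S100a1 was lower. In the macrophage clusters the 4 summed to 9641 CPM in control brain and 2351 in brain 24 h replicate 1, against 127 to 216 CPM in the meninges. The 6 macrophage markers summed to 10345 and 6554 CPM in these brain libraries, against 43268.5 to 55166 CPM in the meninges. In brain 24 h replicate 2 and brain 72 h the microglia markers summed to 494 and 237.8 CPM, also above the meninges, and S100a1 in the macrophage clusters was 34.6 and 56.6 CPM, below the 123 to 189 CPM of the meninges. The part of the microglia markers in this result was not tested.

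The macrophage clusters of the shorter-list libraries carried more of 4 S100 genes than those of any other library. Those of control brain and brain 24 h replicate 1 held far more microglia marker transcripts than the rest, as given above. The part of these markers in the low S100 levels of control brain and brain 24 h replicate 1 was not tested. S100a4 in the macrophage clusters was 6.05 CPM in control brain, 11.9 in brain 24 h replicate 1, 474 in replicate 2, 425 in brain 72 h, 3.14 in control pia, 14.7 in pia 24 h, 25.2 in control dura and 27.2 in dura 24 h. S100a6 was 57.5, 85.4, 1048, 1363, 46.4, 129, 200.5 and 180 CPM in the same order, S100a11 18.1, 41.8, 371, 696, 40.8, 70.5, 87.2 and 80.8 CPM, and S100a10 34.8, 38.1, 271, 312, 56.3, 157, 161 and 156 CPM. These 4 of 8 genes were higher in both shorter-list libraries without overlap, and so were 28.4% of 7331 genes. Over the other sets, 0 of 7 S100 genes were so in microglia (27.3% of genes), 2 of 8 in granulocytes (28.1%), 3 of 8 in dendritic cells (31.6%) and 1 of 8 in lymphoid cells (24.5%). Among single clusters it was 3 of 8 in CAM_1 (24.7%), CAM_2 (20.9%) and Macro_2 (27.3%), and 2 of 8 in Tc (18.1%). These counts leave counting intervals aside: S100a4 in CAM_1 of brain 24 h replicate 2 was 12.5 CPM from 3 UMIs. The replicates of brain at 24 h differed by more than brain 24 h replicate 1 and its control. The 7 monocyte markers did not separate in this way as a set. In the macrophage clusters their sum was 1614 and 2267 CPM in the shorter-list libraries against 169 to 1805 CPM in the other 6. Of the 7, Ccr2 was at 505 and 372 against 25.7 to 216 CPM, and Plac8 at 317 and 251 against 4.3 to 157 CPM. The part of the monocyte markers in the result was not tested.

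The gain was seen in single clusters too. S100a6 in CAM_1 was 5.24, 3.33, 121 and 1337 CPM in control brain, brain 24 h replicate 1, replicate 2 and brain 72 h, and 7.31 to 28.8 CPM in the 4 libraries of the meninges. In SAMC, a stroke-associated myeloid cluster of the authors, it was 6.49 CPM in brain 24 h replicate 1, 193 in replicate 2, 1076 in brain 72 h and 13.7 in pia 24 h, and S100a4 was 2.16, 28.7, 270 and 0 CPM. Brain 72 h was the highest library for both. In SAMC 4 of 8 S100 genes were higher in the shorter-list libraries without overlap, against 34.5% of 7549 genes. With 1 library at 72 h, from the same set as brain 24 h replicate 2, time and library set cannot be told apart.

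**Figure D4:**
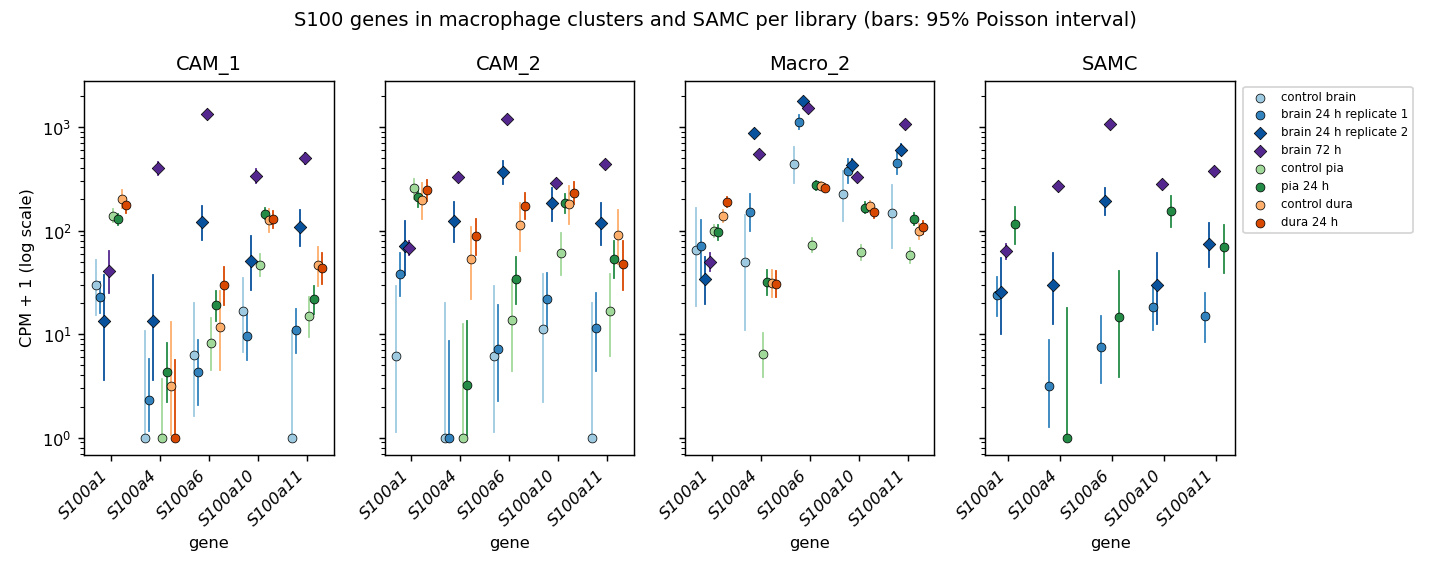
Levels of S100a1, S100a4, S100a6, S100a10 and S100a11 (CPM plus 1, log axis, with 95% Poisson intervals as bars) per library in the clusters CAM_1, CAM_2, Macro_2 and SAMC. For S100a4, S100a6 and S100a11, brain 24 h replicate 2 and brain 72 h lie above all other libraries in each of the 4 clusters, and S100a1 lies lower in brain than in the meninges in CAM_1, CAM_2 and Macro_2. This order of libraries leaves counting intervals aside. S100a4 of brain 24 h replicate 2 rests on 3 UMIs in CAM_1 (12.5 CPM), where its interval overlaps those of all libraries of the longer gene list. In CAM_2 its interval overlaps those of control dura and dura 24 h.

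Stroke at 24 h was compared with control over libraries in 5 classes of clusters by edgeR's quasi-likelihood test on summed UMIs with tissue as a term, Benjamini-Hochberg adjusted over all genes tested. S100 genes were tested 37 times of 40 possible (S100a4, S100a6 and S100a11 were too low in microglia), and 0 were called at an adjusted p under 0.05. No gene at all was called in any class (0.0% of 8875 genes in macrophages, 6078 in microglia, 6591 in lymphoid cells, 6228 in granulocytes and 6950 in dendritic cells). At an unadjusted p under 0.05 there were 431, 170, 102, 107 and 178 genes (4.86%, 2.8%, 1.55%, 1.72% and 2.56%), and DESeq2 called 18, 6, 0, 5 and 2, among them 0 S100 genes. The smallest adjusted p of an S100 gene was 0.932. The macrophage class took in control brain, whose macrophage clusters also held high levels of microglia markers, as given above.

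The S100 genes with an unadjusted p under 0.05 were S100a8 and S100a9 in macrophages, microglia and dendritic cells, 6 of 37 tests, all higher at 24 h, against 2.2%, 1.79% and 1.05% of genes higher in these classes. In lymphoid cells and granulocytes there were 0, against 0.455% and 0.996%. Without the filter on low counts, S100a4 and S100a9 in macrophages (adjusted p = 0.00621 and 0.0232, with 0.439% of genes called and 0.336% called higher) and S100a9 in microglia (adjusted p = 0.0196, with 0.0586% called, all higher) passed by edgeR. Macrophage S100a4 was 474 CPM in brain 24 h replicate 2 against 11.9, 14.7 and 27.2 CPM in the other libraries at 24 h. With the filter, the log2 fold changes of S100a8 and S100a9 (24 h minus control, ± SE) were 1.50 ± 0.44 and 2.03 ± 0.76 in macrophages. They were 2.59 ± 0.78 and 3.86 ± 1.06 in microglia, and 2.12 ± 0.85 and 2.28 ± 0.80 in dendritic cells. In lymphoid cells they were 1.57 ± 0.73 and 1.61 ± 0.83, and the differences between classes were not tested. In microglia S100a8 was 4.75 CPM in control brain against 10.6 and 60.1 at 24 h, 5.59 in control pia against 39.3, and 76.0 in control dura against 270, so that all 4 libraries at 24 h were above their tissue's control. S100a9 was 2.46 against 6.91 and 61.8 CPM, 3.73 against 35.7, and 0 against 142. A low gene can pass the filter on low counts through the libraries where it is high, here those at 24 h. The fold change of S100a9 in microglia and its place among the 6 tests are therefore not independent of that filter. The dura held only 51 such cells in control and 76 at 24 h. S100a8 rested on 5 UMIs in control dura and 3 in control pia, where S100a9 rested on 2. The study found these clusters almost only in the brain. S100a1 in them was 167 CPM in control dura against 15.1 in control brain, so the dura cells may differ from brain microglia, which was not tested. In the macrophages of brain 24 h replicate 1 S100a8 was 12.9 against 7.56 CPM, within counting error. Ly6g was at 0 in the microglia of control brain, control pia, control dura and 3 of the 4 libraries at 24 h, and at 0.87 CPM in brain 24 h replicate 2. Ly6g was low beside S100a8 in Granulo_2 itself, at 18.6 against 80642 CPM in brain 24 h replicate 1 and 276 against 133027 CPM in dura 24 h. At the S100a8 levels of microglia its absence therefore cannot tell where these UMIs came from, which was not tested.

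Leaving out brain 24 h replicate 2 raised the count of genes called to 85, 293, 116, 4 and 155 in macrophages, microglia, lymphoid cells, granulocytes and dendritic cells (0.979%, 5.16%, 2.06%, 0.0812% and 2.16% of genes), and 4 tests of S100 genes then passed. In microglia S100a8 rose by a log2 fold of 1.51 ± 0.35 (edgeR adjusted p = 0.0157), as 2.87% of genes did. The low control counts of the pia and dura given above entered this fit too. Lymphoid S100a8 in the same libraries was 0 CPM in control brain and brain 24 h replicate 1, with 68 and 72 lymphoid cells. It was 5.37 in control pia against 17.4 CPM at 24 h, and 64.0 in control dura against 149 CPM. The part of free RNA in the microglia change was not tested. In dendritic cells S100a8 rose by 1.88 (adjusted p = 0.00705) and S100a9 by 2.24 (adjusted p = 0.00581), as 1.0% of genes did. Without brain 24 h replicate 1 both passed as well, with 2.1% of genes called and 0.975% called higher. This is not a second test, because control brain was absent and the tissue term took up the brain library that was left. The same pia and dura libraries set the change in both fits. No dendritic cells of control brain entered these fits, since it had 20. The change thus rests on the pia and the dura. S100a8 was 0 in control pia against 17.7 CPM at 24 h, and 36.8 in control dura against 113.5 CPM. In the dura the recorded kit changed too. Lymphoid S100a8, the free RNA level, was 5.37 and 17.4 CPM in these pia libraries and 64.0 and 149 CPM in the dura. Dendritic S100a9 was 1.98 and 15.1 CPM in the pia and 12.5 and 55.1 CPM in the dura. Lymphoid S100a9 there was 0, 21.8, 52.1 and 99.8 CPM. The part of free RNA in the change was not tested. In lymphoid cells S100a6 fell by 0.60 on the log2 scale (SE 0.12, adjusted p = 0.00898), as 1.47% of genes did. With all libraries its change was -0.56 ± 0.31 (adjusted p = 1.00).

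Lymphoid S100a6 was 1452 CPM in control brain against 688 and 907 at 24 h, 1133 in control pia against 795, and 662 in control dura against 506. All 4 libraries at 24 h were below their tissue's control by more than the counting intervals. In T cells it was 1612 CPM in control brain against 805 and 1421, 1524 in control pia against 986, and 654 in control dura against 561. There the counting intervals of brain 24 h replicate 2 and dura 24 h overlapped those of their controls. In NK cells S100a6 was 1436 against 1001 in the pia and 672.5 against 483 in the dura, and the intervals overlapped in both. B cells were low throughout, at 0 to 235 CPM, and their share of the lymphoid cells is part of the class level. They were 7 of 68 lymphoid cells in control brain, 7 of 72 in brain 24 h replicate 1 and 161 of 437 in replicate 2. In the pia they were 60 of 281 in control and 48 of 585 at 24 h, and in the dura 153 of 1099 and 438 of 2346.

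**Figure D5:**
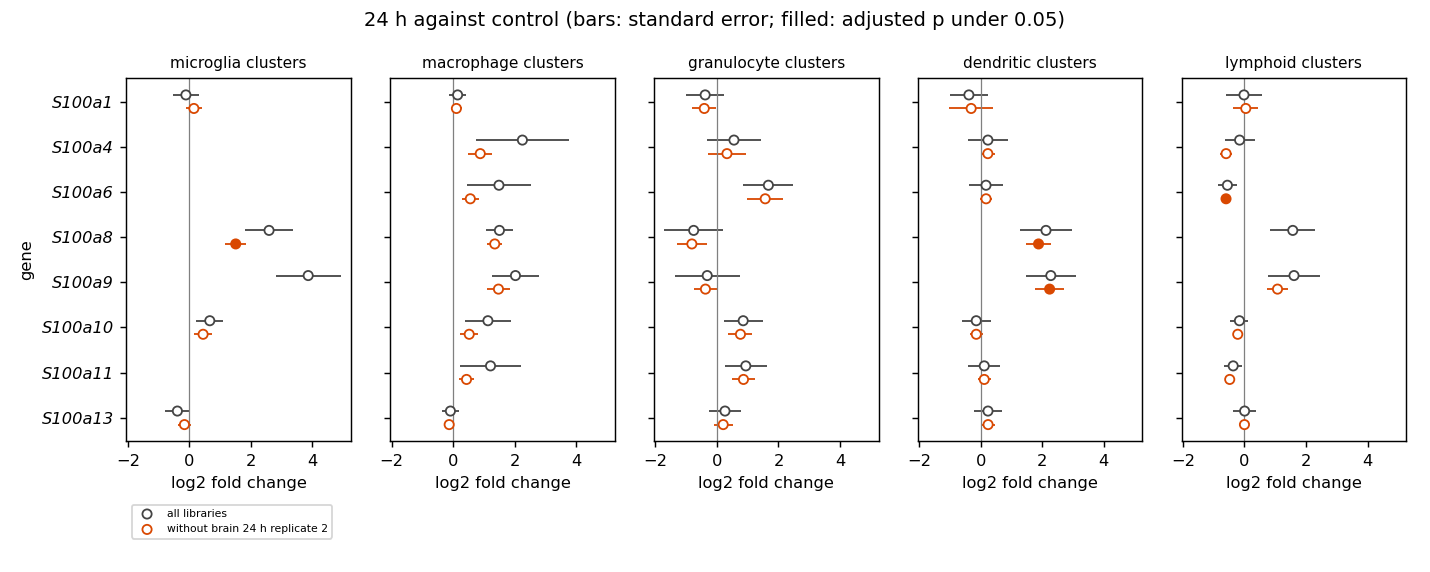
Log2 fold change of each S100 gene, 24 h minus control, with its SE in the 5 classes of clusters, with all libraries and without brain 24 h replicate 2 (edgeR). Filled points have an adjusted p under 0.05: with all libraries there are 0, and without that library there are 4, S100a8 in microglia and in dendritic cells, S100a9 in dendritic cells and S100a6 in lymphoid cells.

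In the granulocyte clusters together, S100a8 changed by -0.76 ± 0.96 and S100a9 by -0.32 ± 1.06 on the log2 scale (edgeR adjusted p = 1.00 for both). The direction was not stable: it was 4.72 and 2.09 in Granulo_1 alone, and 0.085 and 0.16 without control pia. This class sums Granulo_1 and Granulo_2, whose levels of the pair lie far apart, so its value also moves with their cell numbers. S100a6 changed by 1.67 ± 0.81, S100a11 by 0.94 ± 0.68, S100a10 by 0.85 ± 0.63 and S100a4 by 0.55 ± 0.87, none past the threshold. In control brain 9 such cells were annotated, too few to enter. With tissue as a term, the change in this class thus rests on the pia and dura libraries. Without control pia it rests on the dura alone, where the recorded kit changed too.

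Of the partners of these proteins, 19 genes for annexins, Ahnak, receptors such as Tlr4 with its co-receptor Ly96, Ager and Cd36, and the subunits of the phagocyte oxidase, which calprotectin is known to activate, and of 11 neutrophil granule genes and the other S100 genes, 106 tests were made over the 5 classes. With all libraries 0 were called by edgeR, with 6 at an unadjusted p under 0.05. The median log2 fold change of the partners was 0.24 in macrophages and -0.24 in lymphoid cells, beside 0.04 for all genes in both classes. Granule genes had a median of 0.75 over 5 tested in macrophages and 1.56 over 3 tested in dendritic cells, beside 0.04 and -0.01 for all genes. The other granule genes were too low there to be tested. A low gene can pass the filter through the libraries where it is high, so these medians do not measure the list as a whole. In the granulocyte clusters, where all 11 were tested, the median was -0.27 beside 0.06. Without brain 24 h replicate 2, 6 of 100 were called: Ly96 (-0.93, edgeR adjusted p = 0.0157) and Tlr4 (-1.12, adjusted p = 0.0499), which form the lipopolysaccharide receptor, fell in microglia, Cybb (-0.95, adjusted p = 0.0204), the catalytic subunit of the phagocyte oxidase, fell in dendritic cells, and the neutrophil granule genes Ngp (1.60, adjusted p = 0.0014) and Retnlg (2.12, adjusted p = 0.0154) rose in dendritic cells and Ngp (1.02, adjusted p = 0.0135) in lymphoid cells. In this setting 5.16% of all genes were called in microglia, 2.16% in dendritic cells and 2.06% in lymphoid cells. Ngp and Retnlg had their highest means in Granulo_2. Ager, the receptor for advanced glycation end products, had 22 UMIs in all annotated cells.

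The genes whose mean level over the 21 clusters was most like that of each S100 gene were taken from 6458 genes with at least 50 CPM in a cluster. For S100a8 these were S100a9 (r = 0.98), Lcn2 (0.97) and Wfdc21 (0.95), and for S100a9 S100a8 (0.98), Lcn2 (0.95) and Wfdc21 (0.94). For S100a6 they were Anxa2 (0.94), S100a11 (0.93) and Smpdl3a (0.90), for S100a11 S100a6 (0.93), Cd44 (0.91) and Pstpip1 (0.90), and for S100a4 Ahnak (0.91), Ccr2 (0.90) and S100a10 (0.90). S100a1 was nearest to Tyrobp (0.80), Fcer1g (0.79) and Lyz2 (0.79), S100a10 to Gm10076, Rpl24 and Rpl41 (0.95 each), and S100a13 to Cript, Cox14 and Itgb1bp1 (0.90 each). Annexin A2 and Ahnak are known partners of S100a10, and the values here are descriptions over clusters that share libraries.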

How the data were processed

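Leukocytes of 8 libraries were measured with droplet-based scRNA-seq. Counts were deposited by the authors without normalization, as UMIs of each gene in each barcode, and the submitters' processing notes name Cell Ranger 6.0 and genome build mm10. The annotation release is not given in the sources used here. The authors removed cells by gene number and mitochondrial share, removed doublets with a caller and named clusters by hand. Their clusters were taken as deposited. Of 36854 barcodes 4397 had no cluster and entered no comparison. Map coordinates of the cells were not used. From the counts, UMIs were summed per library and cluster over the 30406 shared genes and scaled to CPM, and counting intervals are exact Poisson or binomial at 95%. The 24 h libraries were compared with controls by edgeR 4.0.16 (quasi-likelihood, TMM, filterByExpr, tissue as a term, libraries with at least 30 cells of the class, R 4.3.3), called at an adjusted p under 0.05, with DESeq2 1.42.0 as an alternative. The test was run on simulated data with known changes first. Libraries, not cells, are the replicates. Brain 72 h, a single library, entered no test.

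The S100 genes, the lists of partners, granule genes and cell type markers, and the tests were chosen with earlier results of these data known. The text names all 8 genes, the 3 genes nearest to each by Pearson's r of log2(mean CPM + 1) over clusters (of genes with a mean of at least 50 CPM in a cluster), and of each list those called in a comparison, at most 4. Python 3.11.15 was used for the other steps. Promoter sequences came from a RefSeq table that holds 7 of the 8 genes, and positions from the GRCm38 annotation. Alternatives were another tool and scaling, no filter on low counts, no tissue term, a minimum of 10 cells, library sizes without S100a8 and S100a9, single clusters, other thinning depths and leaving out each library. The restriction to the 6 libraries of the longer gene list was added after seeing the data. One listed microglia marker is not reported here, and sums of these markers leave it out.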

Additional observations from a re-analysis of the deposited data

Results flagged for a closer look

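S100a4 in the granulocyte clusters moved in opposite directions in the meninges, from 43.3 CPM in control pia to 205 CPM in pia 24 h, and from 125 CPM in control dura to 72.0 CPM in dura 24 h. This class sums Granulo_1 and Granulo_2, whose S100a4 levels lie far apart, so it also moves with their cell numbers. In Granulo_1 alone S100a4 was 55.4 CPM in control pia (5 UMIs) against 241 in pia 24 h. In the dura it was 402 CPM in control (interval 307 to 516) against 274 at 24 h (215 to 345), and these intervals overlapped. S100a1 in the dendritic clusters moved from 117 CPM in control pia to 48.0 CPM in pia 24 h, and from 69.7 CPM in control dura to 106 CPM in dura 24 h. Each side is 1 library, and the difference between pia and dura was not tested.

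Some S100 levels in barcodes that the authors gave no cluster, which entered no comparison, lay above those of the same tissue's control. Only cases above it by more than the counting intervals are listed, so unchanged and lower levels are left out. The share of all genes that lay above in this way was not measured. S100a8 was 1903 CPM in brain 24 h replicate 1, 4633 in replicate 2 and 1926 in brain 72 h, against 1569 in control brain, 2308 in pia 24 h against 20.99 in control pia, and 9911 in dura 24 h against 4330.2 in control dura. S100a9 was 583, 4863 and 2125 CPM in the same brain libraries against 387, 719.7 in pia 24 h against 3.94 (3 UMIs), and 2902 in dura 24 h against 1231. S100a6 was 131, 532 and 1334 CPM in brain against 70.4, 413 in pia 24 h against 118, and 479.6 in dura 24 h against 319.6. S100a11 was 98.2, 286 and 644 CPM in brain against 37.9, 279 in pia 24 h against 68.2, and 418 in dura 24 h against 309. S100a10 was 197 and 316 CPM in brain 24 h replicate 2 and brain 72 h against 48.7, 259 in pia 24 h against 89.2, and 349.6 in dura 24 h against 269.6. S100a4 was 132 and 435 CPM in brain 24 h replicate 2 and brain 72 h against 14.1, and 53.6 in pia 24 h against 11.8. S100a1 was 134 and 111 CPM in these brain libraries against 32.5, and S100a13 113 CPM in brain 72 h against 72.6.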

How the results depend on the processing

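With all libraries 0 genes were called in each class. Without the filter on low counts the counts were 73, 11, 8, 6 and 7 in macrophages, microglia, lymphoid cells, granulocytes and dendritic cells, among them 2 S100 genes in macrophages (S100a4 and S100a9, in 0.336% of genes higher) and 1 in microglia (S100a9). DESeq2 called 18, 6, 5 and 2 in macrophages, microglia, granulocytes and dendritic cells, and B cells alone gave 8. Leaving out 1 library at a time gave 0 to 85, 0 to 293, 0 to 116, 0 to 6 and 0 to 155 genes, and 0, 0 to 1, 0 to 1, 0 and 0 to 2 S100 genes. Brain 24 h replicate 2 gave the highest count except in granulocytes, where brain 24 h replicate 1 gave 6, and dendritic cells, where both gave 155. In dendritic cells both fits rest on the same pia and dura libraries, since control brain was absent and tissue was a term. The cause of the rise in counts was not tested.

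Lymphoid S100a6 (-0.56 on the log2 scale) was 2.02 in B cells alone. Granulocyte S100a8 (-0.76) was 4.72 in Granulo_1 alone and -1.62 to 0.085 when 1 library was left out (0.085 without control pia and 0.036 without pia 24 h), and S100a9 (-0.32) was 0.22 without the tissue term, 2.09 in Granulo_1 alone and -0.82 to 0.16 when 1 library was left out (0.16 and 0.12 without the same libraries). The causes were not tested. The relation of lymphoid S100a9 to the library level (r = 0.53) passed as UMIs per cell (0.80), in B cells alone (0.87) and in the 6 libraries of the longer gene list (0.98), but not in T cells alone (0.33), and spanned 0.48 to 0.95 when 1 library was left out, passing without brain 24 h replicate 2 (0.95) and without dura 24 h (0.71). That of S100a8 spanned 0.81 to 0.97. The median lymphoid share with S100a9 was 1.72% at 500 UMIs, 3.88% at 1000 and 3.97% unthinned. The mean of each gene in its highest cluster stayed within the spread between libraries under every alternative run, while that of S100a9 in prolif_cells (997 CPM) was 2556 CPM with a minimum of 10 cells.

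No paired analysis was possible because the groups compared share fewer than 2 replicate numbers. The limits are 1 library for most groups, few lymphoid and granulocyte cells in the control brain, and library sets that split the 24 h brain replicates. A further limit is the recorded kit, which differs between control dura and dura 24 h, although the gene lists and shared barcodes go against that record.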
